A study of Mus musculus with 16 samples.

Results

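The 4 Hox clusters and the Cdx genes were described here across mouse embryos and yolk sacs that lacked or carried rudhira. Members were the analysed array probes whose platform symbol was Hoxa, Hoxb, Hoxc or Hoxd followed by a number, or Cdx1, Cdx2 or Cdx4. This gave 61 of 45281 probes and 41 of 19057 genes: 10 Hoxa, 10 Hoxb, 9 Hoxc, 9 Hoxd and 3 Cdx genes. RNA of C57BL/6J conceptuses at 9.5 days post coitum was measured on Illumina bead arrays in 4 groups of 2 samples each, which were mutant embryos, wild-type embryos, mutant yolk sacs and wild-type yolk sacs. Mutants were homozygous for an exon 6 deletion of rudhira, a gene named Bcas3 on the array, and wild types were +/+ conceptuses from the same kind of heterozygote mating. The labels call the mutants growth retarded with abnormal vascularization and the wild types normal, so genotype and growth stage cannot be told apart. The tail of each embryo, the region where Cdx and the posterior Hox genes are usually most active at this stage, was taken for genotyping, and how much of it the RNA still held is not given in the sources used here. The embryo and the yolk sac with the same number came from 1 conceptus, and each RNA sample was hybridised to 2 arrays that were averaged, so 16 arrays gave 8 samples and n = 2 in every group. Whether the conceptuses of a group shared a litter is not given in the sources used here.

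Hox genes encode homeodomain transcription factors that give cells their position along the head-to-tail axis. They lie in 4 clusters, and within each cluster the genes with low paralog numbers are switched on first and most anteriorly, while those with higher numbers follow later and further back. Cdx1, Cdx2 and Cdx4 encode caudal-type homeodomain factors that drive growth of the trunk and tail and activate central Hox genes, and the TALE proteins of the Pbx and Meis families bind DNA together with Hox proteins. In the yolk sac, Hox genes have mainly been described in the mesoderm, and Cdx genes have been tied to the first blood formation.

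Promoters of 4 members that were called in embryos are printed as examples: Cdx2 as the regulator, Hoxa7 as a trunk gene, and Hoxd8 and Hoxd10 as genes of 1 cluster with opposite changes. The sequences are from RefSeq (GRCm38.p6), run from 250 bases before to 50 bases after the start of the gene, and are written on the gene's own strand. They lie at chr5:147307200-147307499 on the minus strand for Cdx2, chr6:52218524-52218823 on the minus strand for Hoxa7, chr2:74704365-74704664 on the plus strand for Hoxd8 and chr2:74691641-74691940 on the plus strand for Hoxd10. Capitals mark TTTATG, a core form of the sites that Cdx proteins bind, searched on both strands.
Cdx2: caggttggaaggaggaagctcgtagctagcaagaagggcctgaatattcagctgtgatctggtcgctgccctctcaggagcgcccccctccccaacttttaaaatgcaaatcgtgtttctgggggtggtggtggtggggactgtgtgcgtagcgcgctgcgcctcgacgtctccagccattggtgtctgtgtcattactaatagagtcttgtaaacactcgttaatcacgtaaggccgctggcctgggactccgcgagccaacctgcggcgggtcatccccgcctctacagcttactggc
Hoxa7: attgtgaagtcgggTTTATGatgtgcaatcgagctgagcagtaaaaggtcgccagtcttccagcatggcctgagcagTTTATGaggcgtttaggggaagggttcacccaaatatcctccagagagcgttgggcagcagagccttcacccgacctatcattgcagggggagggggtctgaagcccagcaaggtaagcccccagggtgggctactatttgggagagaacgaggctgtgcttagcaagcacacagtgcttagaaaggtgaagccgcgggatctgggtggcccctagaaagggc
Hoxd8: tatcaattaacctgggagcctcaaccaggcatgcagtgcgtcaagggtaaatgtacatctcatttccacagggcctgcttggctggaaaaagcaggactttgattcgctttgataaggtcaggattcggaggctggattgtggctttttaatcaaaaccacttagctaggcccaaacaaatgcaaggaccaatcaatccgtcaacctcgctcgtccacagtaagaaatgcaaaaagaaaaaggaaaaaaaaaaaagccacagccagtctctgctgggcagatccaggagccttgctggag
Hoxd10: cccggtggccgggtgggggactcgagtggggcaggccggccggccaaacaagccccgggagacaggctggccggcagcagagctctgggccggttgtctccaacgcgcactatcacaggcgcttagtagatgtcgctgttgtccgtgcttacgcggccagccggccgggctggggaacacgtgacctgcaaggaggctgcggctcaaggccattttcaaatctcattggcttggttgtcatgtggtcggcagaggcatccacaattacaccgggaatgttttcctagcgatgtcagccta
The Hoxa7 window held the motif at -236 and -173 relative to the start of the gene, and these letters were not in the Cdx2, Hoxd8 and Hoxd10 windows. Of the 41 members, 24 had an entry, and 5 of their 26 promoters held the motif (19.2%), beside 11.9% of all 32851 promoters in the table. The 5 were promoters of Hoxa7, Hoxb8, Hoxd3, Hoxd4 and Hoxd11. Of these genes only Hoxa7 was called in embryos, Hoxd3 and Hoxd4 were not called, and Hoxb8 and Hoxd11 were too dim to test. Cdx2, Hoxa9, Hoxb1, Hoxd8 and Hoxd10 were called in embryos and held no motif. Hoxc9, Hoxb9, Hoxc6 and Hoxb7, which also rose in embryos, had no entry. A match is a run of letters and was not shown to be bound.

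Of the 41 genes, 24 were bright enough to test. Probes had to be detected on at least 4 of the 16 arrays, and each gene was represented by its brightest kept probe, which left 11339 genes in all. Tested members were Hoxa2, a4, a5, a7 and a9, Hoxb1 to b7 and b9, Hoxc4, c6, c9 and c10, Hoxd3, d4, d8, d9 and d10, and Cdx1 and Cdx2. Of the 12 genes of paralog groups 10 to 13, 2 were tested, against 9 of 11 genes in groups 1 to 4 and 11 of 15 in groups 5 to 9. The 17 genes left out were Hoxa3, a6, a10, a11 and a13, Hoxb8 and b13, Hoxc5, c8, c11, c12 and c13, Hoxd1, d11, d12 and d13, and Cdx4. They were detected on at most 2 arrays, and 13 of them on 0. Cdx4, which acts with Cdx2 in trunk growth and blood formation, was the only one of the 17 with a signal above 50 in a sample. Its background-subtracted intensity was 10.4 and 53.6 in mutant embryos 1 and 2, against 0.4 and 0.5 in wild-type embryos 1 and 2. Both of its 2 detections were on mutant embryo arrays. The value of mutant embryo 1 was below the lowest detected signals of its arrays, 21.7 and 21.6, so the high signal is that of mutant embryo 2 alone. With so few detections it was not tested.

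Levels below are normalized log2 intensities, and a change is mutant minus wild type on that scale unless said otherwise. A gene is called when limma's adjusted p over all 11339 genes was below 0.05. The 75th percentile of the signal before normalization was 108.7 to 124.0 on mutant embryo arrays and 109.5 to 125.5 on wild-type embryo arrays. In yolk sacs it was 67.0 to 74.8 on mutant arrays and 97.6 to 140.7 on wild-type arrays, so the mutant yolk sac libraries were dimmer than all others. Repeat arrays of a sample correlated at 0.996 to 0.998. The probe for Bcas3, whose place relative to the deleted exon is not given in the sources used here, cannot check the genotype. Its level was 8.11 and 9.28 in embryos labelled mutant 1 and 2, against 8.34 and 8.62 in wild-type embryos, and 8.44 and 8.53 in mutant yolk sacs, against 9.61 and 9.90 in wild-type yolk sacs. The level of the library labelled mutant embryo 2 was above both wild-type embryos, so directions that rest on it rest on its label.

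**Figure D1:**
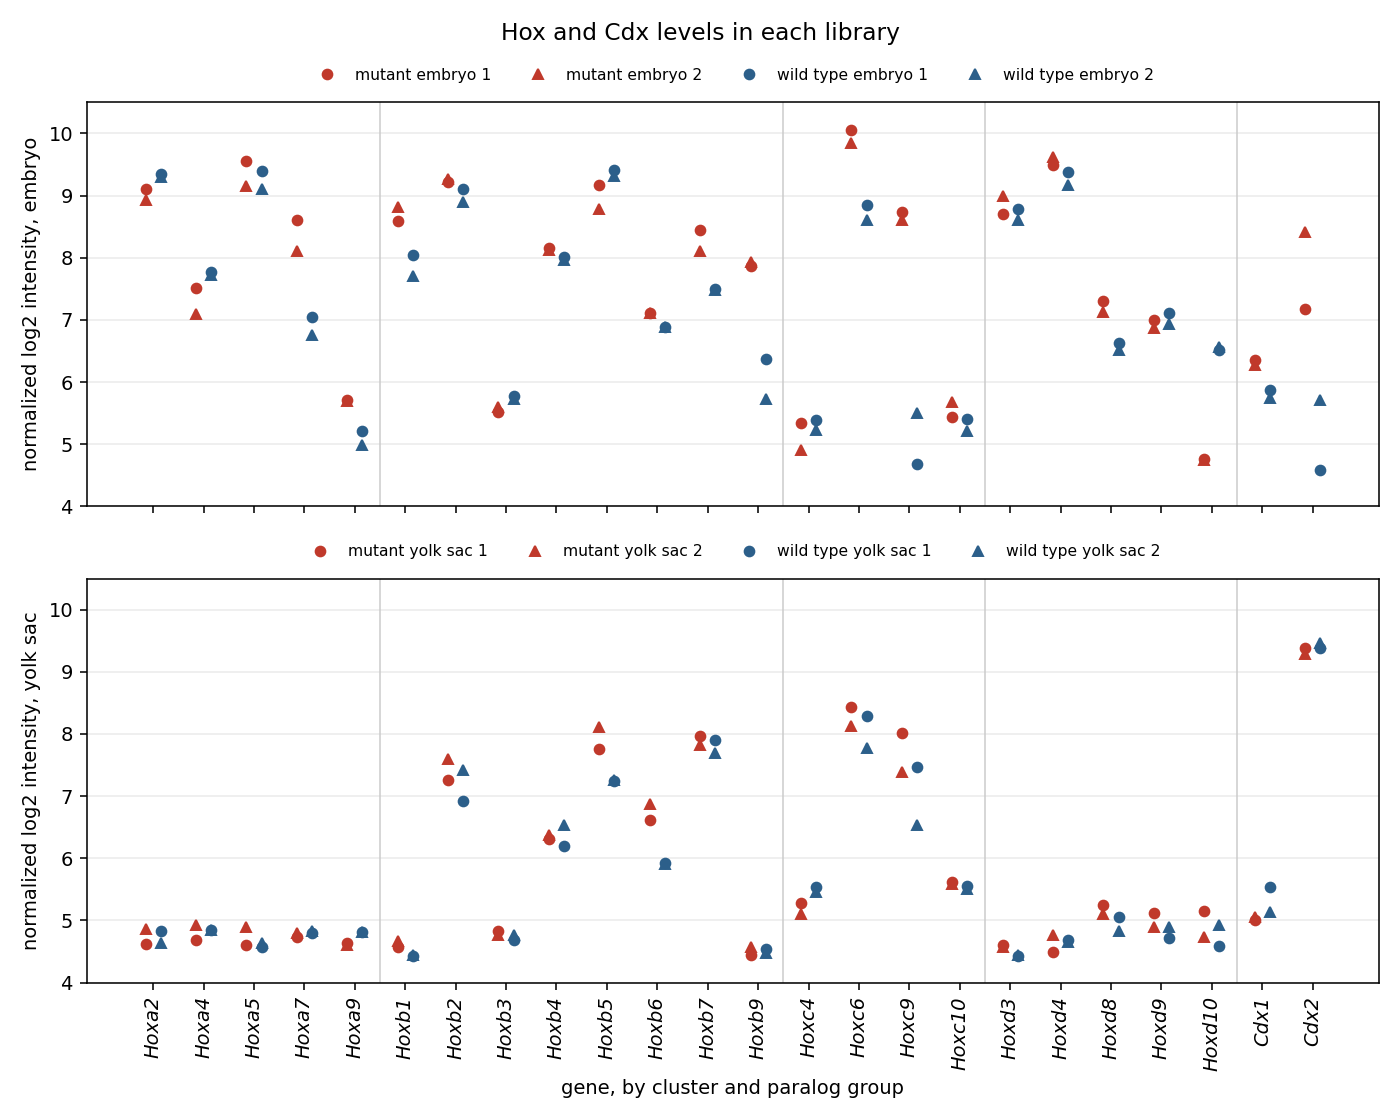
Normalized log2 intensity of the 24 tested Hox and Cdx genes in each library, with embryos above and yolk sacs below. Red marks are mutants and blue marks wild types, circles are replicate 1 and triangles replicate 2, and each mark is the mean of 2 arrays. Marks compare libraries within a gene, since brightness also depends on the probe. In embryos the red marks of Hoxc9, Cdx2, Hoxb9 and Hoxa7 stand above the blue ones and those of Hoxd10 below. In yolk sacs the tested Hoxa and Hoxd genes lie near the detection floor in both genotypes.

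In embryos, 7 of 11 tested genes of paralog groups 5 to 9, Hoxb1 and Cdx2 were higher in mutants, and Hoxd10 was lower. Of 24 tested members, 9 rose (Hoxc9, Cdx2, Hoxb9, Hoxa7, Hoxc6, Hoxb1, Hoxb7, Hoxd8 and Hoxa9), 1 fell (Hoxd10) and 14 did not pass. Among all tested genes 0.609% rose and 1.53% fell. The median change of the members was 0.25, beside 0.00 over all genes. The 2 groups did not overlap for 15 members in the higher direction and 5 in the lower, beside 25.2% and 26.7% of all genes. Hoxa9 passed the detection filter only with the mutant embryo arrays and Hoxd10 only with the wild-type embryo arrays, so their presence among the tested genes is tied to the difference itself.

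Of the 4 tested genes of paralog group 9, 3 rose. Hoxc9, which specifies thoracic identity in spinal cord and vertebrae, was at 8.73 and 8.60 in mutant embryos 1 and 2, against 4.68 and 5.50 in wild-type embryos 1 and 2. Both mutants were high and the wild types were near or below the detection floor, which lay at 4.99 to 5.29, with Hoxc9 detected on all 4 mutant and on 2 of 4 wild-type arrays. Its change was 3.57 (SE 0.37, adjusted p = 0.00892), and with the wild types this dim the size depended on the processing, from 2.68 with an offset of 50 to 4.58 with the authors' values. Hoxb9, a thoracic patterning gene, was at 7.87 and 7.93 in mutant embryos, against 6.37 and 5.72 in wild-type embryos. The groups were well apart, and the change was 1.85 (SE 0.19, adjusted p = 0.00866). Hoxa9, the paralog in the Hoxa cluster, was dimmer, at 5.71 and 5.69 in mutant embryos, against 5.21 and 4.98 in wild-type embryos, where it was detected on 2 of 4 arrays. It rose by 0.60 (SE 0.10, adjusted p = 0.0337), and a second Hoxa9 probe gave 0.96 (adjusted p = 0.0145 over all kept probes). Hoxd9 did not follow, with 6.99 and 6.87 in mutant embryos, against 7.11 and 6.93 in wild-type embryos and a change of -0.09 (SE 0.12, adjusted p = 0.853).

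Groups 6 to 8 gave 4 more calls. Hoxa7, a thoracic gene and a known target of Cdx proteins, was at 8.60 and 8.11 in mutant embryos, against 7.04 and 6.75 in wild-type embryos. The lower mutant was more than 1 log2 unit above the higher wild type, and the change was 1.46 (SE 0.17, adjusted p = 0.0115). Hoxc6, expressed from the level of the forelimb backwards, was at 10.06 and 9.85 in mutant embryos, against 8.84 and 8.61 in wild-type embryos, a change of 1.23 (SE 0.20, adjusted p = 0.0286). Hoxb7, the trunk paralog of Hoxa7, was at 8.45 and 8.11 in mutant embryos, against 7.49 and 7.48 in wild-type embryos. It rose by 0.80 (SE 0.14, adjusted p = 0.0373), while its second probe, at 0.73, did not pass (adjusted p = 0.1035 over all kept probes). Hoxd8, the only group 8 gene bright enough to test, was at 7.31 and 7.13 in mutant embryos, against 6.63 and 6.51 in wild-type embryos. Its groups did not overlap, and it rose by 0.65 (SE 0.12, adjusted p = 0.0446). Hoxb6, at 7.11 in both mutant embryos and 6.88 in both wild-type embryos, had a change of 0.23 that did not pass (SE 0.11, adjusted p = 0.436).

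Groups 1 to 5, which pattern mainly the hindbrain and neck, held 1 call in 11 tested genes, a border that was drawn after the values were seen. Hoxb1, the gene that sets the identity of the rhombomere 4 segment of the hindbrain, was at 8.59 and 8.82 in mutant embryos, against 8.05 and 7.71 in wild-type embryos. The groups were apart, the change was 0.83 (SE 0.14, adjusted p = 0.0313), and a second Hoxb1 probe gave 0.82 (adjusted p = 0.0214 over all kept probes). The other 10 genes of these groups had changes between -0.44 and 0.28. Hoxa4 was at 7.52 and 7.10 in mutant embryos, against 7.77 and 7.72 in wild-type embryos (change -0.44, SE 0.15, adjusted p = 0.277). Hoxb5 was at 9.17 and 8.78 in mutant embryos, against 9.41 and 9.32 in wild-type embryos (change -0.40, SE 0.16, adjusted p = 0.381). For both genes the mutants lay below the wild types without passing the test. Hoxd4 (0.28), Hoxb2 (0.25), Hoxd3 (0.16), Hoxb4 (0.16), Hoxa5 (0.10), Hoxc4 (-0.18), Hoxb3 (-0.19) and Hoxa2 (-0.30) did not pass either.

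Hoxd10, which patterns the lumbar cord and the hindlimb, was the only member called lower. It was at 4.76 and 4.74 in mutant embryos, against 6.52 and 6.56 in wild-type embryos. The 2 wild-type embryos nearly coincided, and the probe was detected on all 4 wild-type and on 0 of 4 mutant arrays. The mutant values lay below the detection floor, so their closeness to each other says little about the level. The gene was tested only because of the wild-type embryo arrays, where it was high. Set against the floor of the mutant arrays, the level was at least 2.76-fold lower in mutants (measured change -1.79, SE 0.16, adjusted p = 0.00407). Here and below, such a bound takes, for each dim array, the higher of the gene's own value and the lowest value of a detected probe. It holds for the normalization used here only. The measured change of Hoxd10 was -1.06 with an offset of 50 and -2.96 with median scaling. Its neighbours on the Hoxd cluster did not move with it: Hoxd9 changed by -0.09 and Hoxd8 by 0.65. Hoxc10, the other group 10 gene tested, was at 5.43 and 5.68 in mutant embryos, against 5.40 and 5.21 in wild-type embryos, with a change of 0.25 that did not pass (SE 0.12, adjusted p = 0.458).

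Grouped by position, 1 of 9 genes rose in groups 1 to 4, 7 of 11 in groups 5 to 9 and 0 of 2 in groups 10 to 13, where 1 fell. The medians were 0.16, 0.65 and -0.77, the last from 2 genes of opposite sign, with 10 of the 12 genes there not tested. The 7 rises include Hoxa9, and the fall is Hoxd10. Each passed the detection filter only with the embryo group where it was high, so these counts are partly tied to the difference itself. Calls in the higher direction stood in every cluster, with 2 of 5 Hoxa, 3 of 8 Hoxb, 2 of 4 Hoxc and 1 of 5 Hoxd genes. Median changes by cluster were 0.10 for Hoxa, 0.24 for Hoxb, 0.74 for Hoxc and 0.16 for Hoxd. Across the 20 tested genes of groups 1 to 9, paralog number and change correlated at 0.54 (Pearson; Spearman 0.47), and at 0.23 (Spearman 0.27) when the 2 group 10 genes were included. These values describe genes that share the same 4 embryo samples and are not independent replicates.

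**Figure D2:**
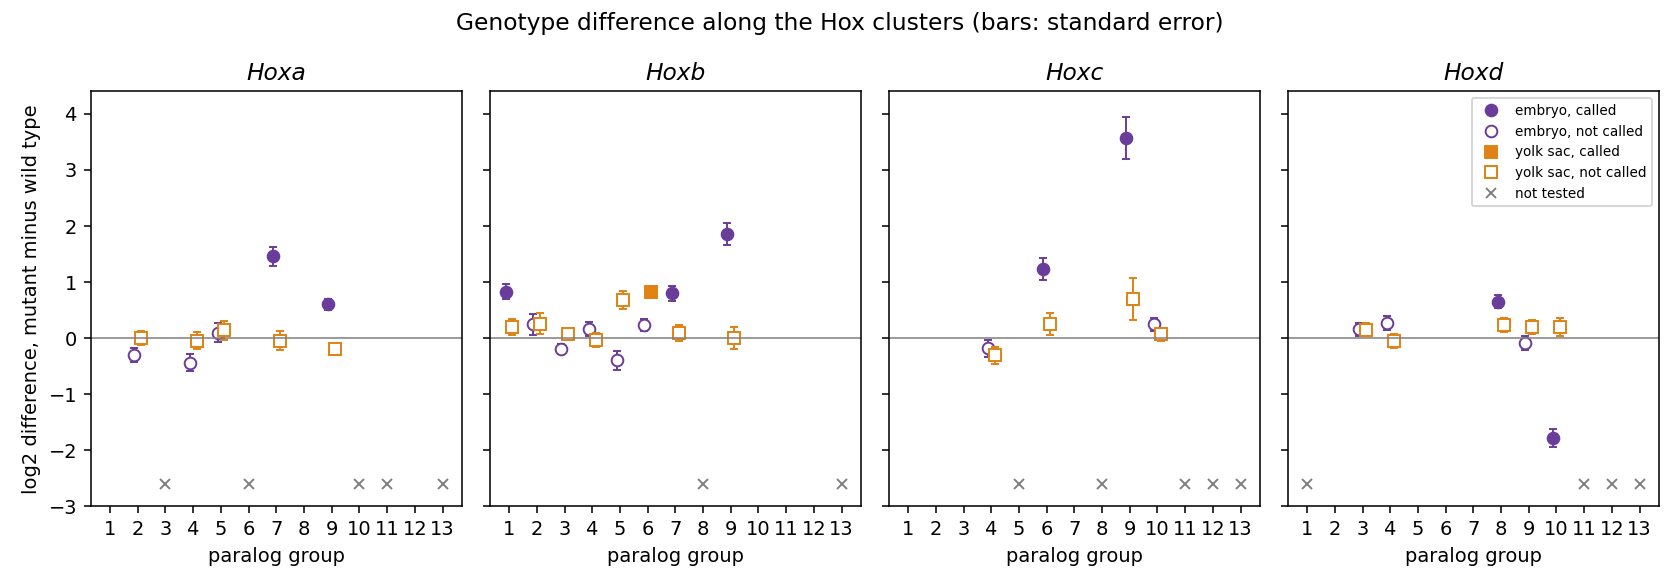
Mutant minus wild-type difference in log2 intensity by paralog group, with 1 panel per Hox cluster. Purple circles are embryos and orange squares yolk sacs, filled where limma's adjusted p was below 0.05, bars are standard errors, and grey crosses at the foot are genes on the array that were too dim to test. Filled circles above 0 are 7 of the 11 tested genes of groups 5 to 9 and Hoxb1, and the only filled circle below 0 is Hoxd10 at -1.79. The only filled square is Hoxb6 at 0.82.

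Among the Cdx genes, Cdx2 was at 7.18 and 8.41 in mutant embryos 1 and 2, against 4.59 and 5.71 in wild-type embryos 1 and 2. The embryos of each group were more than 1 log2 unit apart, the groups did not overlap, and the change was 2.64 (SE 0.44, adjusted p = 0.0343). The gene was detected on all 4 mutant and on 2 of 4 wild-type arrays. Cdx1, active in the primitive streak and trunk, was at 6.35 and 6.27 in mutant embryos, against 5.87 and 5.74 in wild-type embryos, and its change of 0.51 did not pass (SE 0.14, adjusted p = 0.154). A second Cdx1 probe gave 0.91 with an adjusted p of 0.0618 over all kept probes.

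Cdx2 and Hoxc9 were also bright in wild-type yolk sac, and the embryo libraries differed in the level of genes of visceral endoderm, the absorptive outer layer of the yolk sac. The mean level of 18 measured visceral endoderm genes of 20 listed was 8.21 and 8.73 in mutant embryos 1 and 2, against 5.81 and 9.37 in wild-type embryos 1 and 2, and 12.08 to 12.27 in all yolk sacs. Ttr, a carrier protein made by this endoderm, was at 11.77 and 12.14 in mutant embryos, against 7.47 and 12.54 in wild-type embryos. Wild-type embryo 2 had the highest endoderm level of the 4 embryos, and its Cdx2 (5.71) and Hoxc9 (5.50) were below both mutants. Within each genotype, embryo 2 had more endoderm signal and also more Cdx2, at 4.59 and 5.71 in wild types and 7.18 and 8.41 in mutants. Hoxc9 was also higher in wild-type embryo 2 (4.68 and 5.50), but not in mutant embryo 2 (8.73 and 8.60). In the fit without wild-type embryo 1, Hoxc9 changed by 3.16 (adjusted p = 0.0253) and Cdx2 by 2.08 (adjusted p = 0.0965). That comparison rests on 1 wild-type embryo, and the part of endoderm RNA in the Cdx2 and Hoxc9 differences was not tested. None of the 18 endoderm genes was called between embryos, with 1 higher and 0 lower at an unadjusted p under 0.05 by limma. Among all 11339 genes, 572 were higher and 842 lower by that measure. The 2 wild-type embryos lay so far apart that even large differences could not pass. Amn, for example, changed by 1.58 with an SE of 1.40 (limma's adjusted p = 0.737). The missing calls therefore do not show that the groups held equal endoderm RNA.

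**Figure D3:**
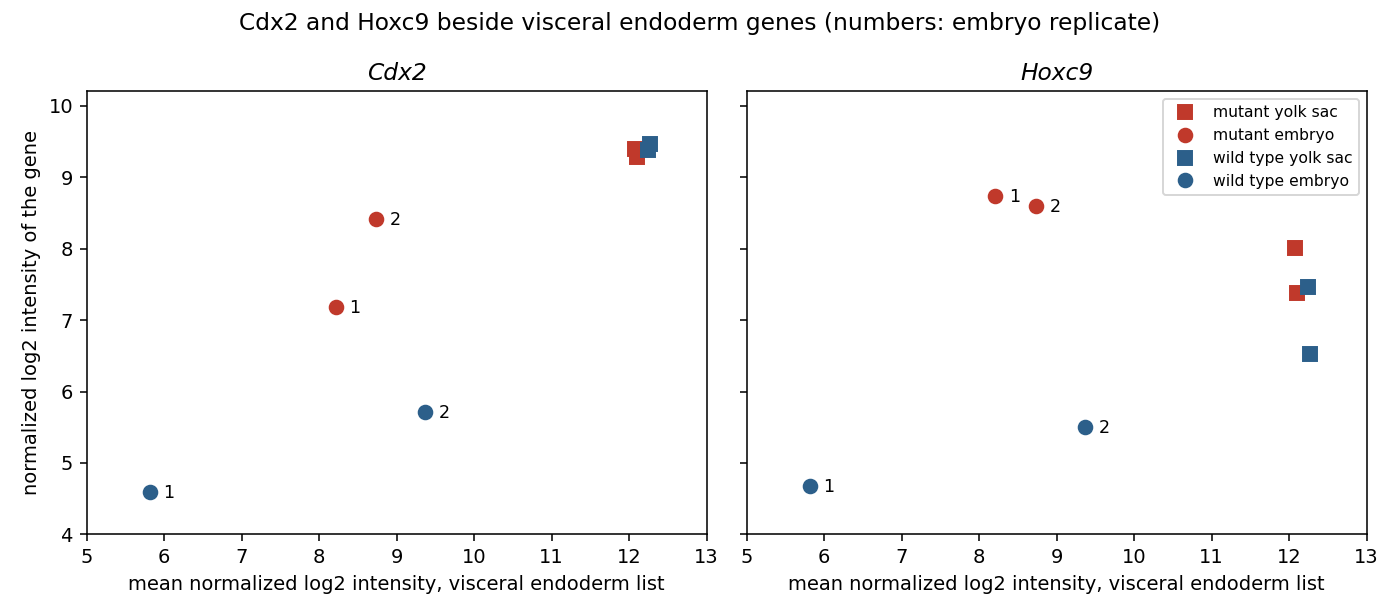
Log2 intensity of Cdx2 (left panel) and Hoxc9 (right panel) against the mean log2 intensity of 18 visceral endoderm genes in the same library. Red marks are mutants and blue marks wild types, squares are yolk sacs and circles embryos, and the numbers beside circles are replicates. Wild-type embryo 2 lies furthest right among the embryos at 9.37, below both mutant embryos in each panel. Within each genotype the embryo further right has the higher Cdx2.

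The embryo calls differed in how far they rested on single libraries. Hoxa7 and Hoxd10 were called without each of the 8 libraries in turn, and Hoxb9 (adjusted p = 0.0621) and Hoxc9 (adjusted p = 0.0582) lost their call only without the library labelled mutant embryo 2. Without that library Hoxa7 was the only one of the 9 rises that was called. Hoxa9, Hoxb7 and Hoxd8 lost their call in all 8 of these fits, with adjusted p from 0.0555 to 0.210. Hoxb1 lost it in 7, all but the fit without wild-type embryo 1, and Cdx2 in 6, all but those without mutant embryo 1 or wild-type embryo 2. Hoxc6 lost it without any one of the 4 embryos and kept it without any one yolk sac. All 10 called members kept their sign in every setting tried.

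Genes that act with, upstream of or beside the Hox clusters were counted in the same embryo comparison, and 1 of them was called. Among all 11339 genes, 572 were higher and 842 lower in embryos at an unadjusted p under 0.05 by limma. Of 8 TALE cofactors tested of 9 listed, 0 were called by limma, with 0 higher and 2 lower at an unadjusted p under 0.05, and their median change was -0.03. Of 14 upstream regulators tested of 20 listed, 1 rose and 0 fell, with 6 higher and 0 lower at an unadjusted p under 0.05 by limma and a median of 0.23. The gene that rose was Egr2, a hindbrain factor that activates Hoxa2 and Hoxb2, at 6.12 and 6.75 in mutant embryos, against 5.18 and 5.23 in wild-type embryos (change 1.23, SE 0.18, adjusted p = 0.0219). Hoxa2 and Hoxb2 themselves had changes of -0.30 and 0.25 that did not pass. Of 25 Polycomb and Trithorax genes tested of 26 listed, which keep Hox genes off or on, 0 were called, with 1 higher and 0 lower at an unadjusted p under 0.05. Of 7 tested genes of 13 listed that flank the clusters, 0 were called, with 1 higher and 0 lower unadjusted, and the median was 0.14.

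Markers of tissues along the axis were counted in the same way, beside the same 572 higher and 842 lower of 11339 genes unadjusted. Of 9 tailbud and presomitic mesoderm genes tested of 17 listed, 0 rose and 1 fell, with 2 higher and 2 lower at an unadjusted p under 0.05 by limma. The gene that fell was Fgf17, a growth factor of the tailbud and the midbrain border (7.53 and 7.37 in mutant embryos, against 8.10 and 8.20 in wild-type embryos, change -0.70, SE 0.10, adjusted p = 0.0198). Of 12 neural tube genes tested of 16 listed, 0 rose and 2 fell: Dcx, a marker of young neurons, changed by -1.86 (SE 0.12, adjusted p = 0.00161) and Sox3, a neural progenitor factor, by -0.52 (SE 0.09, adjusted p = 0.0431). At an unadjusted p under 0.05 by limma, 1 neural tube gene was higher and 5 were lower. The mean of the neural tube list was 7.25 and 7.14 in mutant embryos, against 7.61 and 7.47 in wild-type embryos. In these bulk samples, fewer cells of a type and less RNA per cell cannot be told apart. Of 6 limb bud genes tested of 8 listed, Grem1, a BMP antagonist of the limb, rose by 1.15 (SE 0.20, adjusted p = 0.0402), with 1 higher and 0 lower unadjusted. Of 9 genes of extraembryonic mesoderm and allantois tested of 10 listed, Wnt2, a Wnt ligand of the allantois, rose by 1.06 (SE 0.15, adjusted p = 0.0206) and Isl1, a factor of heart, limb and motor neuron progenitors, fell by 0.78 (SE 0.09, adjusted p = 0.0119). In this list 3 were higher and 1 was lower unadjusted. Of 10 primitive erythroid genes tested of 12 listed, 0 were called by limma, with 0 higher and 5 lower unadjusted. The mean of the erythroid list was 11.04 and 9.95 in mutant embryos 1 and 2, against 11.14 and 11.21 in wild-type embryos. The library labelled mutant embryo 2, without which 1 of the 9 rises was called, stood below the other embryos. The part of these tissues in the Hox and Cdx differences was not tested.

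In yolk sacs, Hoxb6 was the only member called between genotypes. Of 24 members, 1 rose and 0 fell, with 2 higher and 0 lower at an unadjusted p under 0.05 by limma, and the median change was 0.08, beside 0.00 over all genes. Among all genes 0.564% rose and 0.688% fell, and 1107 of 11339 were higher and 1261 lower at an unadjusted p under 0.05 by limma. Hoxb6, a gene of posterior mesoderm and blood progenitors, was at 6.61 and 6.87 in mutant yolk sacs, against 5.93 and 5.91 in wild-type yolk sacs. The wild types nearly coincided below both mutants, and the change was 0.82 (SE 0.11, adjusted p = 0.0383). Its neighbour Hoxb5 was at 7.75 and 8.11 in mutant yolk sacs, against 7.24 and 7.26 in wild-type yolk sacs, a change of 0.68 that did not pass (SE 0.16, adjusted p = 0.0834). For 7 members the mutants lay wholly above the wild types and for 3 wholly below, beside 23.8% and 24.1% of all genes. Without 7 of the 8 libraries, each left out alone, the Hoxb6 call ended (adjusted p = 0.0645 to 0.160), the exception being mutant yolk sac 1. The mutant yolk sac arrays were also the dimmest before normalization, and the part of this in the Hoxb6 difference was not tested.

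The other yolk sac values stayed within the spread of the test. Hoxc9 was at 8.01 and 7.38 in mutant yolk sacs, against 7.46 and 6.53 in wild-type yolk sacs, with groups that overlapped and a change of 0.69 (SE 0.37, adjusted p = 0.338). Hoxc4 was at 5.28 and 5.10 in mutant yolk sacs, against 5.54 and 5.45 in wild-type yolk sacs (change -0.30, SE 0.15, adjusted p = 0.309). Cdx2 was at 9.39 and 9.28 in mutant yolk sacs, against 9.38 and 9.46 in wild-type yolk sacs, and so varied by less than 0.2 over the 4 samples (change -0.09, SE 0.44, adjusted p = 0.940). Cdx1 was at 5.01 and 5.06 in mutant yolk sacs, where 1 of 4 arrays detected it, against 5.53 and 5.14 in wild-type yolk sacs, where all 4 did (change -0.30, SE 0.14, adjusted p = 0.260). The Hoxa and Hoxd genes changed by -0.19 to 0.23, and most of their values were near the floor. Hoxd8 was at 5.24 and 5.11 in mutant yolk sacs, against 5.06 and 4.83 in wild-type yolk sacs, and Hoxd9 at 5.12 and 4.90, against 4.72 and 4.89, with neither passing. Hoxa5 and Hoxa9 were below detection on all yolk sac arrays. Of the listed genes, Phc3, a Polycomb subunit, changed by -0.69 (SE 0.12, adjusted p = 0.0473), Isl1 by 0.67 (SE 0.09, adjusted p = 0.0383) and Tfrc, the transferrin receptor, by -1.08 (SE 0.19, adjusted p = 0.0473), while 0 of 8 TALE cofactors, 0 of 14 upstream regulators and 0 of 7 flanking genes were called, with 1 cofactor, 1 upstream regulator and 0 flanking genes at an unadjusted p under 0.05 by limma. None of 9 tailbud, 12 neural tube, 18 visceral endoderm and 6 limb bud genes was called in yolk sacs, with 0 tailbud, 0 neural tube, 1 visceral endoderm and 1 limb bud gene at an unadjusted p under 0.05 by limma.

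The difference between the genotype effects of the tissues, embryo minus yolk sac, was called for 1 member, Hoxd10, whose value mostly restates its difference in embryos. Hoxd10 passed the detection filter only with the wild-type embryo arrays and was near the floor in the other 3 groups, so a yolk sac effect could not be measured. The fitted value was -1.98 (SE 0.23, adjusted p = 0.0283), with an effect of -1.79 in embryos and 0.19 in yolk sacs, where 1 of 4 mutant arrays and 0 of 4 wild-type arrays detected it. With the conceptus as a block, which pairs each yolk sac with its own embryo, the adjusted p was 0.0761. Among all genes 0.0706% were called with a larger and 0.265% with a smaller effect in embryos. No member was called in the higher direction. At an unadjusted p under 0.05 by limma, 10 of 24 members were higher and 3 lower, beside 1035 and 1086 of 11339 genes. Closest to the threshold were Hoxb9 (difference 1.85, SE 0.27, adjusted p = 0.0513), Hoxa7 (1.51, SE 0.24, adjusted p = 0.0587), Hoxa9 (0.80, SE 0.14, adjusted p = 0.0641) and Hoxc9 (2.88, SE 0.53, adjusted p = 0.0660). For Cdx2 the difference was 2.73 (SE 0.63, adjusted p = 0.0898). Hoxb5 and Hoxb6 pointed the other way, at -1.07 (SE 0.23, adjusted p = 0.0807) and -0.59 (SE 0.15, adjusted p = 0.107). For none of the 9 members that rose in mutant embryos was the effect shown to differ from that in yolk sacs.

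Between tissues, most Hox genes were lower in yolk sac than in the embryo of the same genotype. In mutants 20 of 24 members were lower and 1 was higher, beside 36.5% and 32.7% of all genes. In wild types 19 were lower and 2 higher, beside 36.2% and 33.2% of all genes. Of the 24, 12 passed the detection filter only with the embryo arrays and so had to be dim in yolk sac, and they made up 11 of the calls in the lower direction in mutants and 12 in wild types. The clusters differed in how much was left. Detected on all 8 yolk sac arrays were 5 of 8 tested Hoxb genes (b2, b4, b5, b6 and b7), all 4 tested Hoxc genes and Cdx2, and 0 of 5 Hoxa and 0 of 5 Hoxd genes.

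Hoxd4, a hindbrain and neck gene, was at 4.50 and 4.76 in mutant yolk sacs, against 9.49 and 9.62 in mutant embryos, and at 4.69 and 4.66 in wild-type yolk sacs, against 9.38 and 9.17 in wild-type embryos. It was bright in every embryo and undetected in every yolk sac, at least 22.6-fold lower in mutant yolk sacs (adjusted p = 2.34e-07) and at least 18.1-fold lower in wild-type yolk sacs (adjusted p = 2.42e-07). Over the alternatives its log2 difference ran from -6.07 to -3.74 in mutants and from -5.85 to -3.46 in wild types. Hoxa5, needed for lung and neck patterning, was at least 19.7-fold lower in mutant yolk sacs and at least 17.8-fold lower in wild-type yolk sacs. Hoxd3 was at least 13.9-fold lower in mutants and 12.1-fold lower in wild types, and Hoxb1 at least 12.6-fold lower in mutants and 6.87-fold lower in wild types. The bounds for Hoxa7 were 9.87-fold in mutants and 3.47-fold in wild types, and for Hoxb9 7.21-fold in mutants and 1.93-fold in wild types. The yolk sac levels of both genes stayed between 4.44 and 4.83 in all 4 samples, while their embryo levels were higher in mutants.

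Hoxb2, Hoxb4, Hoxb5, Hoxb6 and Hoxb7 kept a clear yolk sac level, while Hoxb1, Hoxb3 and Hoxb9 lay near or below the floor there. Hoxb5, at the yolk sac and embryo levels given above, differed by -1.04 on the log2 scale in mutants (SE 0.16, adjusted p = 0.000808) and by -2.12 in wild types (SE 0.16, adjusted p = 1.87e-05). Hoxb2 was at 7.26 and 7.60 in mutant yolk sacs and 6.92 and 7.42 in wild-type yolk sacs, Hoxb4 at 6.31 and 6.37 in mutants and 6.19 and 6.54 in wild types. Both were lower than in embryos, with differences of -1.83 to -1.62. Hoxb7 was at 7.96 and 7.82 in mutant yolk sacs, against 8.45 and 8.11 in mutant embryos (difference -0.39, SE 0.14, adjusted p = 0.0358). This call held in 10 of 18 alternatives, and without mutant embryo 1 the difference was -0.22 (adjusted p = 0.216). In wild-type yolk sacs it was at 7.91 and 7.69, against 7.49 and 7.48 in wild-type embryos, a difference of 0.32 that did not pass (SE 0.14, adjusted p = 0.0757). The interaction for Hoxb7 had an adjusted p of 0.127.

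Cdx2 was higher in yolk sac in both genotypes. It was higher by 1.54 in mutants (SE 0.44, adjusted p = 0.0156) and by 4.27 in wild types (SE 0.44, adjusted p = 8.72e-05), at 9.28 to 9.46 in all yolk sacs. The mutant call ended without mutant embryo 1 (0.93, adjusted p = 0.0930), without mutant yolk sac 1 (adjusted p = 0.0682) or 2 (adjusted p = 0.0537) and with median scaling (adjusted p = 0.0575). Hoxc9 was higher in wild-type yolk sacs than in wild-type embryos by 1.91 (SE 0.37, adjusted p = 0.00261). In mutants its difference was -0.97 (SE 0.37, adjusted p = 0.0492), a call that ended with the conceptus as a block (adjusted p = 0.0722), without either mutant embryo (adjusted p = 0.161 and 0.118) and without mutant yolk sac 2 (adjusted p = 0.239). Hoxc6 was lower in yolk sac, with a difference of -1.67 in mutants (SE 0.20, adjusted p = 0.000190) and of -0.69 in wild types (SE 0.20, adjusted p = 0.0150). The wild-type call ended without wild-type embryo 1 (adjusted p = 0.0791) or wild-type yolk sac 2 (-0.43, adjusted p = 0.0823). Hoxc4 and Hoxc10, dim in all libraries, were called in neither genotype. Hoxa9 was counted among the 19 lower in wild types (adjusted p = 0.0377), but its mean in wild-type embryos was not above the floor of the yolk sac arrays, so no fold can be given, and the call ended with the conceptus as a block (adjusted p = 0.0616).

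**Figure D4:**
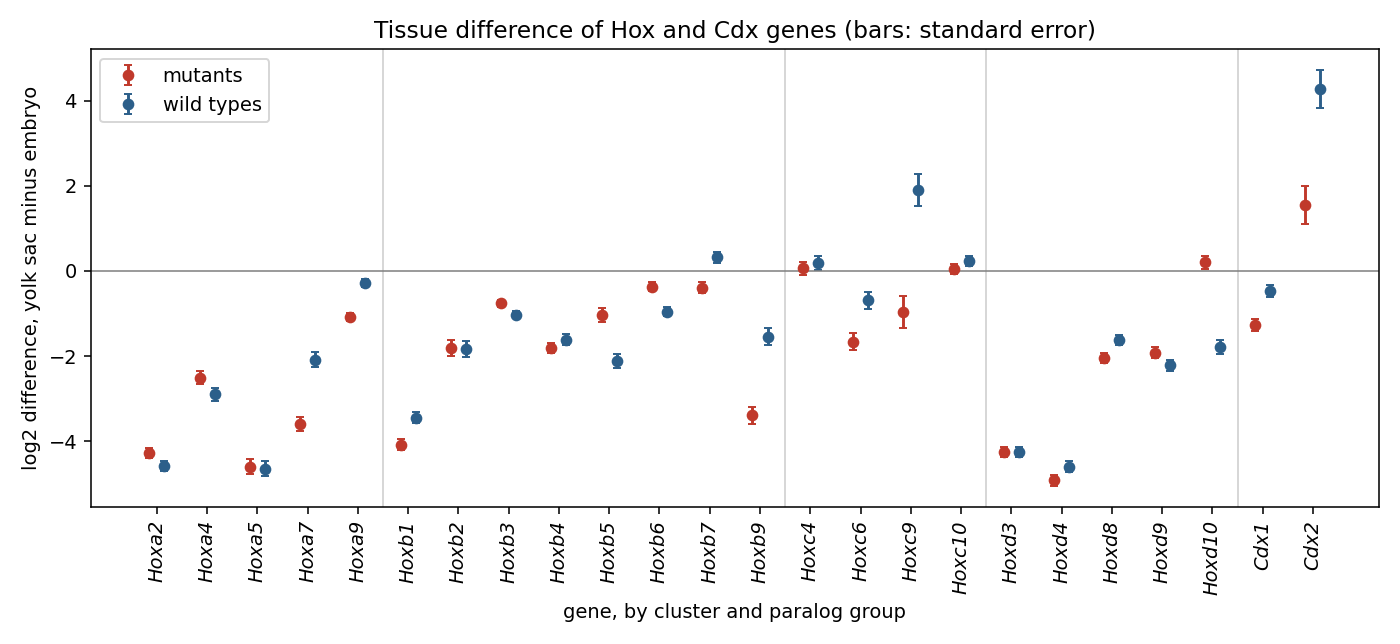
Yolk sac minus embryo difference in log2 intensity for the 24 tested genes, by cluster, with mutants in red and wild types in blue and standard errors as bars. The 2 colours lie close for most genes, with the lowest values at Hoxd4, Hoxa5 and Hoxa2. Cdx2 stands above 0 in both genotypes, and Hoxc9 lies below 0 in mutants at -0.97 and above 0 in wild types at 1.91.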

How the data were processed

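Total RNA of 8 samples was measured as biotin-labelled cRNA on 16 Illumina mouse bead arrays, per the labels' protocols. For the upstream software, background method and genome build, nothing is stated in the sources used here. The authors deposited 1 linear intensity per probe and array in a table named as non-normalized. Values below 0 and unequal upper quartiles show that it was background-subtracted and not scaled between arrays. Beside each intensity the authors deposited a score between 0 and 1, headed as a p-value, that did not follow the intensities (Spearman correlations of 0.0106 at most). Scores were therefore matched to intensities by rank within each array, and a probe was taken as detected where 1 minus its matched score was below 0.05. A second table that the authors deposited holds log2 values centred on each probe within a tissue, by comparison with the intensities, and served as an alternative for comparisons within a tissue.

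Intensities were normalized with limma's neqc (limma 3.58.1, R 4.3.3, offset 16), which corrects the background from these detection p-values, quantile normalizes and takes log2, and the 2 arrays of each sample were averaged. Symbols came from the platform annotation: 34885 probes had 1 symbol, 18 had several and 10378 had none. Probes detected on at least 4 arrays were kept (21211), and each gene was represented by its brightest kept probe (11339 genes). lmFit and eBayes were run with 4 group means over all 8 samples, leaving 4 residual degrees of freedom, and p-values were adjusted by Benjamini-Hochberg over all genes with a threshold of 0.05. The fit was tested on simulated data. The 2 RNA samples in each group limit the precision, and p-values cover the spread between these conceptuses only.

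The members and all gene lists were chosen with earlier results of these data known. Members were described in every sample where called in a genotype comparison or in the interaction, or where among the 2 largest changes of their cluster in a genotype comparison. Of the lists, the genes past the threshold were named, at most 6 a list and comparison. The lists (neural tube, endoderm, erythroid, limb, tailbud and extraembryonic markers, TALE cofactors, upstream regulators, Polycomb and Trithorax genes, flanking genes) were described by counts, with no test of a list. Alternatives were each library left out, other normalizations, filters and probe rules, first arrays only, smaller sets of samples and a replicate block. Yolk sac and embryo of a number are 1 conceptus by their labels, and their deviations from the group means correlated at 0.22 in mutants and 0.042 in wild types over genes. Replicate numbers shared between genotypes name samples only.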

Additional observations from a re-analysis of the deposited data

Results flagged for a closer look

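Hoxd10 was singled out because the test of the difference between the tissues' genotype effects passed its threshold. The effect in embryos minus that in yolk sacs was -1.98 on the log2 scale (SE 0.23, limma's adjusted p = 0.0283), and it was negative in every setting tried. The adjusted p was 0.0761 with the conceptus as a block and passed the threshold without 3 of the 8 libraries, each left out alone. In yolk sacs the probe was at 5.15 and 4.74 in mutants and 4.59 and 4.92 in wild types, values near the detection floor, and in mutant embryos it was undetected too. A genotype effect in yolk sacs could therefore not be measured, and the value mostly restates the embryo difference of -1.79 rather than showing that the tissues differed. Groups of 2 samples were too small for a check on single outlying samples.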

How the results depend on the processing

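The 1 member that fell and the 9 that rose in mutant embryos kept their direction in every setting, and the number called depended on the setting. The setting with the samples that the series design names left out wild-type embryo 1 and mutant embryo 2. It therefore compared 1 mutant embryo with 1 wild-type embryo. Rises in embryos numbered 5 with median scaling, 5 with first arrays only, 4 with no detection filter, 2 with the samples that the series design names, 1 with only the embryo samples in the fit and 0 with the authors' processed values, and 1 to 4 when 1 library was left out. The fall of Hoxd10 gave 0 calls with the authors' values and with the series design's samples, and Hoxd10 was not tested with a filter of 8 arrays (0 calls). Over all genes 242 were called in embryos, against 24 with only the embryo samples, 24 with the series design's samples, 0 with the authors' values (1060 at an unadjusted p under 0.05) and 51 to 207 without 1 library. In yolk sacs the rise of Hoxb6 gave 0 calls with the replicate block, with first arrays only, with only the yolk sac samples and with the series design's samples, 3 with the authors' values (Hoxb1, Hoxb6 and Hoxd3) and 0 to 1 without 1 library. Over all genes 142 were called there, against 0 in the first 4 of these settings, 325 with median scaling, 241 with an offset of 50, 215 with no filter, 55 with the authors' values and 0 to 109 without 1 library. For the interaction, members in the higher direction numbered 2 with an offset of 50, 1 with the mean of all probes, 1 with the mirrored detection threshold, which was chosen after seeing the data, and 0 to 2 without 1 library. Those in the lower direction were 0 with the replicate block, the authors' values, a filter of 8 arrays, first arrays only and the series design's samples, and 0 to 1 without 1 library. All-gene interaction calls, 38 in all, became 143 with an offset of 50, 81 with no filter, 58 with median scaling, 18 with first arrays only, 5 with a filter of 8 arrays, 2 with the authors' values, 0 with the replicate block or the series design's samples and 0 to 86 without 1 library. Members higher in mutant yolk sacs than in mutant embryos were 0 with median scaling, 2 with no filter, 2 with the mirrored threshold and 0 to 1 without 1 library. Leaving out a library or a tissue removes residual degrees of freedom, and the cause of the other differences was not tested. With the replicate number as a replicate block, 8 of the 9 rises in embryos were called (Hoxb1 was not, adjusted p = 0.0540). Tissue differences moved little, with 17 to 20 members lower in mutants and 16 to 20 in wild types over all settings. Replicate numbers of embryos and of yolk sacs correlated across genotypes at 0.192 and 0.172, which does not establish that they pair the samples.

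Signal over background limits what can be said of the 17 members too dim to test and of the Hoxa and Hoxd genes in yolk sac, for which only bounds can be given. Hoxb1 and Hoxd3, called in yolk sacs only with the authors' values, were detected on 0 of 4 mutant and 0 of 4 wild-type yolk sac arrays. Their yolk sac changes were 2.13 and 1.91 with the authors' values. The fit reported above gave 0.20 and 0.15, and median scaling gave 0.0 for both.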

Other observations

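Where a member had several kept probes, their changes in embryos were of similar size for 4 genes. The Hoxa2 probes changed by -0.30 and -0.35, the Hoxb1 probes by 0.83 and 0.82, the Hoxb7 probes by 0.80 and 0.73, and the Hoxd9 probes by -0.09 and -0.06. The 4 Hoxb3 probes lay on both sides of 0, at -0.19, -0.12, 0.11 and 0.14, and none of them was called. Among the genes left untested for dimness, Hoxa13 and Hoxd11 had small positive signals in all 8 samples, at 10.1 to 17.7 for Hoxa13 and 7.5 to 16.2 for Hoxd11 on the probes with the most detections. They overlapped between genotypes and tissues.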
